A study of Mus musculus with 16 samples.

Results

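Pristane is a mineral oil that is injected into the peritoneum to induce arthritis in rodents. Of 19938 genes, 452 (2.27%) differed between pristane footpads of day 160 and control footpads of day 0 in the mouse lines AIRmax and AIRmin. All 452 differences had the same sign in both lines. The fit favours this, since it gives both lines the same change and counts any difference in response between the lines as error. When the 4 group means were fitted instead, 504 genes passed, and 489 of them had the same sign in both lines. The 452 genes are the response described here. A gene was counted as changed when its adjusted p was under 0.05 in a limma fit of pristane against control on all 16 arrays with line as a covariate (Benjamini-Hochberg over all genes), and it was kept when the mean change within AIRmax and within AIRmin ran the same way. Of the 452 genes, 89 were higher in pristane footpads (0.446% of genes tested) and 363 were lower (1.82%). The 43 gene lists examined hold 718 of the 19938 genes, and 7 of the 89 rises and 64 of the 363 falls are in a list. The rises were of mixed kind, with Chl1, Il1rn, Zc3h12a, Acod1 and Cxcl2 among those named by size or p. The lists of mature B cell, osteoblast, fat cell and MHC class II genes had the highest shares of falls.

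AIRmax and AIRmin are outbred lines bred in opposite directions for high and low acute inflammation from 1 founder population that combined inbred strains. Both lines, treated or not, come from that selection, so every array here carries a selected genome. The 4 groups were AIRmax pristane, AIRmax control, AIRmin pristane and AIRmin control, with 4 arrays each from 2 males and 2 females, and every mouse is labelled 2 to 4 months old. Pristane mice had 2 injections of 0.5 ml into the peritoneum with an interval of 60 days, and their footpads are those of day 160, while control footpads are those of day 0. Treatment and day therefore cannot be told apart, and whether the control mice had been injected is not given beyond the word control. The age label cannot be the age of pristane mice at day 160, so age at collection cannot be told apart from treatment either. The labels give no arthritis score for any footpad. Total RNA of the whole footpad was hybridized. Markers of keratinocytes (Krt10, mean log2 signal 12.64), fibroblasts (Col1a1, 12.13), skeletal muscle (Acta1, 11.70), bone (Ibsp, 9.61) and granulocyte precursors (Mpo, 9.68) were bright. Those of B cells (Cd79a, 5.74, and Ms4a1, 5.02) lay below the median of 6.15 over the genes tested. The median of an array over all probe sets was between 5.44 and 5.53. Xist, Kdm5d, Eif2s3y and Uty separated the labelled sexes on all 16 arrays.

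As background, the arthritis that pristane gives in mice starts long after the injection, with neutrophils and macrophages in the swollen paw and with the loss and repair of joint tissue. Macrophages and neutrophils that are activated through Toll-like receptors or interleukin-1 release CXC chemokines, which draw in more neutrophils, and at the same time make inhibitors that restrain the reaction. Mature B cells reach the limb through blood, lymph and bone marrow, and the marrow space of the small bones of the foot also holds fat cells.

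The sizes of the changes were modest. The 89 rises had a median log2 change of 0.34 (range 0.21 to 2.20), with a median of 0.36 in AIRmax and 0.34 in AIRmin, and the 363 falls had a median of -0.55 (range -1.95 to -0.20), with -0.58 in AIRmax and -0.50 in AIRmin. The median over all genes was 0.03. Changes of at least 2-fold were seen for 3 rises (0.015% of genes tested) and 29 falls (0.145%), and a change of at least 2-fold within each line for 0 rises and 11 falls. Many of the rises were dim, since 35 of 89 had a mean signal under 5 in both treatments, against 16 of 363 falls. Just inside the threshold were Epyc (adjusted p = 0.04987), Cd1d1 (0.04998) and Nbr1 (0.04998), and just outside it were Sparcl1 (0.05027), Cutc (0.05037) and Frmd3 (0.05064).

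**Figure D1:**
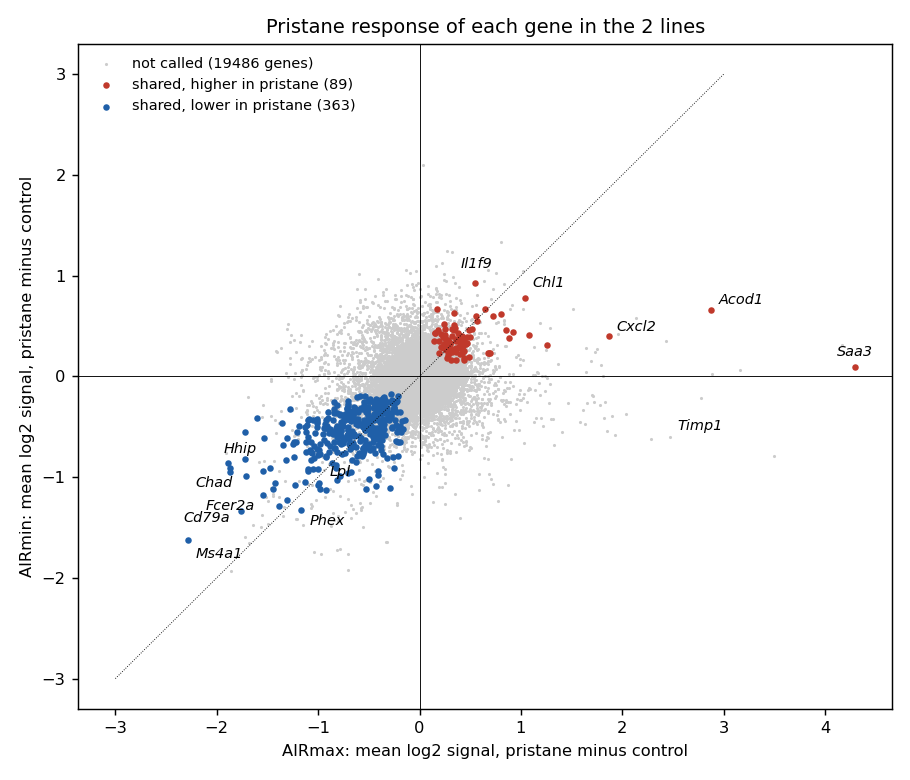
Change of each of 19938 genes in AIRmax (x axis, mean log2 signal of 4 pristane arrays minus 4 control arrays) against the same change in AIRmin (y axis), with shared rises in red and shared falls in blue. The 452 called genes lie at the upper right and lower left, Ms4a1 is at the lower left end, and Saa3 lies far to the right with almost no change in AIRmin.

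Each line was also fitted on its own 8 arrays. In AIRmax 56 genes passed (0.281%), 28 of them among the 452, and in AIRmin 0 genes passed in limma, with 2469 genes under an unadjusted p of 0.05 (12.4%). Of the 452 genes, 364 had an unadjusted p under 0.05 in both lines. The pristane and control arrays did not overlap, in the same direction in both lines, for 182 genes (0.913% of genes tested), with 44 higher (0.221%) and 138 lower (0.692%), and 160 of them are among the 452, 29 higher and 131 lower. Over all genes, 12362 of 19938 changes (62%) had the same sign in both lines. For 28 genes (0.14%) the arrays were apart in both lines but in opposite directions. Within males and within females of each line (2 arrays against 2), the sign was the same in all 4 comparisons for 444 of the 452 genes, against 5054 of all 19938. These counts use the same arrays as the choice of the genes and are given as a description.

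The change was larger in AIRmax for 50 of the 89 rises and 241 of the 363 falls. The difference of the response between the lines was tested with an interaction contrast, in which 34 genes passed over all genes (0.171%). Saa3 was the 1 shared gene among them, and 53 of the 452 had an unadjusted p under 0.05 for the difference.

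Il1rn and Zc3h12a rose in both lines with no overlap of the arrays. Il1rn encodes the interleukin-1 receptor antagonist, which blocks interleukin-1 signalling. Its log2 signal was 8.09, 8.20, 7.78 and 8.38 in AIRmax pristane footpads, against 7.49, 7.40, 7.24 and 7.13 in AIRmax controls, and 8.03, 7.93, 7.99 and 7.89 in AIRmin pristane footpads, against 7.22, 7.45, 7.42 and 7.28 in AIRmin controls. Every pristane array was above every control array of both lines, and the change was 0.71 ± 0.08 (SE, 1.63-fold, adjusted p = 0.00119), nearly the same in AIRmax (0.80 ± 0.14) and AIRmin (0.62 ± 0.09). Zc3h12a, the ribonuclease regnase-1 that degrades messenger RNAs of inflammatory cytokines, stood at 6.83, 7.38, 7.33 and 6.88 in AIRmax pristane footpads, against 6.25, 6.29, 6.59 and 6.42 in AIRmax controls. In AIRmin it was 6.95, 6.77, 6.88 and 6.74 with pristane, against 6.12, 6.34, 6.17 and 6.30 in controls. The arrays again did not overlap in either line (0.66 ± 0.09, 1.58-fold, adjusted p = 0.00186).

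Hcar2, the receptor for niacin and ketone bodies on myeloid cells and fat cells, rose by 0.66 ± 0.13 (adjusted p = 0.017), and its arrays did not overlap in either line. Il1f9, which encodes interleukin-36 gamma, a cytokine of the epidermis, rose by 0.74 ± 0.14 (adjusted p = 0.0151), with 0.55 in AIRmax and 0.93 in AIRmin. Gadd45b, a gene induced by stress and by NF-kappaB, rose by 0.49 ± 0.10 (adjusted p = 0.0155). Nfkbiz, an inducible nuclear partner of NF-kappaB named after its value was seen, rose by 0.63 ± 0.14 (adjusted p = 0.0294), and its call was lost without any 1 of AIRmax control arrays 105, 106 and 107, AIRmin control array 114 or AIRmin pristane array 118 (adjusted p from 0.0522 to 0.07).

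Chl1 came first among the rises with a signal of at least 5 when they were ordered by the smaller of the 2 lines' changes (0.78, in AIRmin). It encodes a cell adhesion molecule of the L1 family that is best known from neurons. The values were 7.20, 7.60, 7.36 and 7.13 in AIRmax pristane footpads, against 6.09, 6.47, 6.68 and 5.88 in AIRmax controls, and 7.59, 7.23, 7.61 and 7.50 in AIRmin pristane footpads, against 6.46, 6.76, 6.98 and 6.63 in AIRmin controls. No pristane array reached down to a control array (0.91 ± 0.12, 1.88-fold, adjusted p = 0.00186).

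Acod1, Cxcl2 and Saa3 had the largest changes among the rises, and in each of them most of the change came from AIRmax. Acod1 encodes the enzyme that makes itaconate in activated macrophages. Its log2 signal was 8.01, 7.90, 6.71 and 8.80 in AIRmax pristane footpads, against 4.68, 4.63, 5.03 and 5.54 in AIRmax controls, and 6.17, 5.99, 5.05 and 5.67 in AIRmin pristane footpads, against 5.18, 4.96, 4.91 and 5.18 in AIRmin controls. The AIRmax groups were far apart and the AIRmin groups overlapped by 1 pristane array. The fitted change was 1.77 ± 0.36 (3.41-fold, adjusted p = 0.0187), with 2.88 ± 0.40 in AIRmax and 0.66 ± 0.21 in AIRmin, and the difference of the lines had an adjusted p of 0.0836.

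Cxcl2, a chemokine that recruits neutrophils, was at 5.73, 5.87, 5.49 and 6.45 in AIRmax pristane footpads, against 3.86, 4.40, 3.95 and 3.83 in AIRmax controls, and at 5.08, 4.41, 4.29 and 4.08 in AIRmin pristane footpads, against 4.45, 3.88, 3.93 and 4.00 in AIRmin controls. The groups overlapped in AIRmin only. The change was 1.14 ± 0.24 (2.20-fold, adjusted p = 0.0211), and without AIRmax control array 107 it was 1.07 with an adjusted p of 0.0534. Saa3, an acute phase protein made by macrophages and fat cells, met the rule by sign alone, with 4.30 ± 0.31 in AIRmax (19.7-fold) and 0.09 ± 0.19 in AIRmin. Its values were 8.19, 8.74, 7.69 and 9.12 in AIRmax pristane footpads, against 4.19, 3.97, 3.72 and 4.67 in AIRmax controls, and 4.16, 4.39, 3.56 and 4.24 in AIRmin pristane footpads, against 4.17, 4.10, 3.63 and 4.06 in AIRmin controls. The AIRmin values overlapped fully, the fitted change was 2.20 ± 0.55 (adjusted p = 0.0491), and the response differed between the lines by 4.21 (adjusted p = 0.000147). The call of Saa3 was lost without any 1 of 11 of the 16 arrays (adjusted p up to 0.107), among them all 8 AIRmax arrays. Timp1, an inhibitor of matrix metalloproteinases, is no member, since its change was 2.47 in AIRmax and -0.60 in AIRmin.

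**Figure D2:**
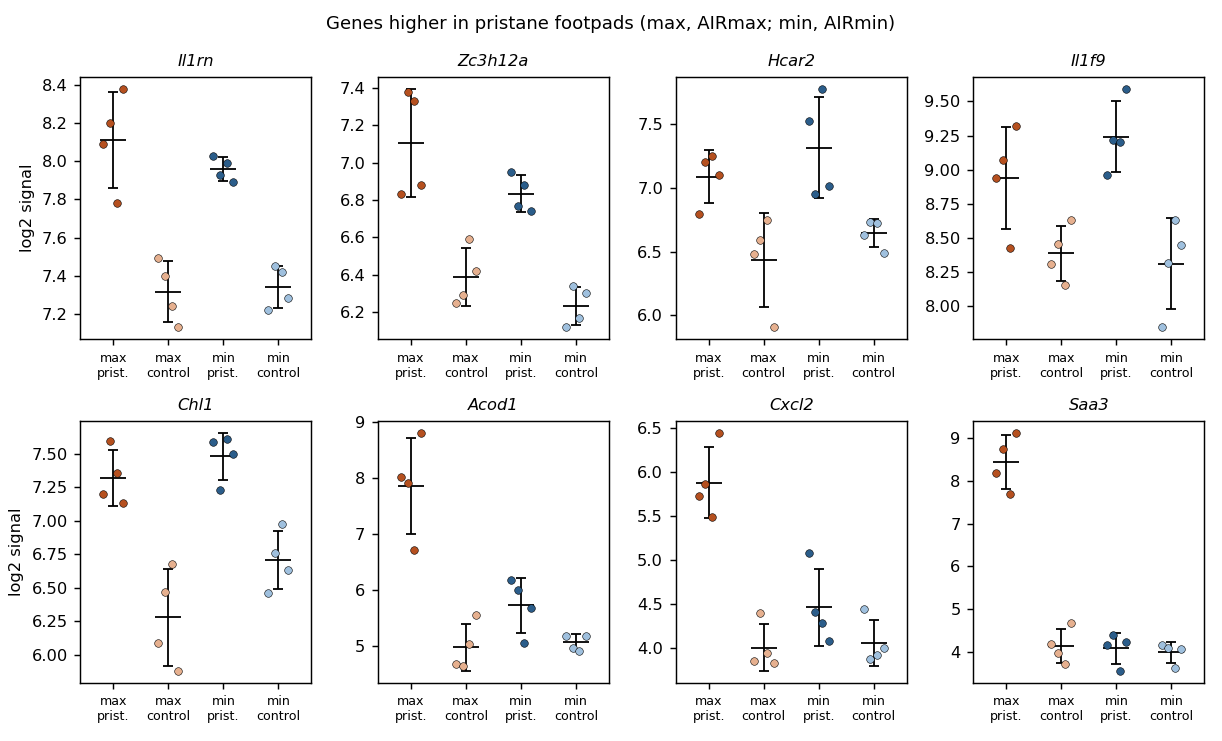
Log2 signal (y axis) of 8 shared rises on each array, as points, with the mean and SD of the 4 arrays of each group (x axis, AIRmax pristane, AIRmax control, AIRmin pristane, AIRmin control). Il1rn, Zc3h12a, Hcar2 and Chl1 are apart in both lines, while Saa3 is apart only in AIRmax.

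Of 14 CXC chemokines tested 3 were higher and 1 was lower, against 0.446% higher and 1.82% lower over all genes. A positive change was seen in 7 and a negative change in 7 (median 0.06, with 0.27 in AIRmax and 0.01 in AIRmin). For 0 of the 14 there was no overlap between pristane and control arrays in both lines, against 0.913% of all genes. Cxcl3, a close relative of Cxcl2, rose by 0.46 ± 0.11 (adjusted p = 0.041), and Cxcl16, a ligand of Cxcr6 on T cells, by 0.78 ± 0.19 (adjusted p = 0.0433). Both calls were lost without any 1 of 12 (Cxcl3) or 11 (Cxcl16) of the arrays (adjusted p up to 0.0913). With the skeletal muscle score, the mean level of muscle genes on an array, as a covariate, none of the 3 rises passed (adjusted p = 0.056 for Cxcl2, 0.0943 for Cxcl3 and 0.0986 for Cxcl16). The muscle score was itself lower with pristane in AIRmax (mean -0.81, against 0.13 in controls), so score and treatment are partly mixed in that fit. Cxcl9, a chemokine that interferon gamma induces and that attracts T cells, fell instead. It was at 5.91, 5.04, 4.36 and 5.07 in AIRmax pristane footpads, against 6.80, 6.64, 7.64 and 6.83 in AIRmax controls, and at 4.55, 4.91, 4.79 and 5.73 in AIRmin pristane footpads, against 5.88, 6.11, 5.41 and 6.03 in AIRmin controls. The groups were apart in AIRmax and overlapped by 1 array of each group in AIRmin (-1.37 ± 0.25, 2.59-fold lower, adjusted p = 0.0108).

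The promoters of Il1rn, Cxcl2 and Cxcl3 are shown because they hold a sequence like the NF-kappaB site, GGG and TTTCC with any 2 bases between them, which was searched on both strands in the RefSeq windows from 250 bases before to 50 bases after each start (GRCm38.p6). The match is in capitals. All 3 genes lie on the plus strand, and the windows are chr2:24345121-24345420 for Il1rn, chr5:90903649-90903948 for Cxcl2 and chr5:90785851-90786150 for Cxcl3.
Il1rn: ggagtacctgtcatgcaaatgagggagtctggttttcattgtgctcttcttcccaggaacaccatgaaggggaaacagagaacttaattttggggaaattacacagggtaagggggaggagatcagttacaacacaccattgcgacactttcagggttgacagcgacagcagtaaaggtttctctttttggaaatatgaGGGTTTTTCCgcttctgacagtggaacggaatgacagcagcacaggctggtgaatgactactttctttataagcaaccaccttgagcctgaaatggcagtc
Cxcl2: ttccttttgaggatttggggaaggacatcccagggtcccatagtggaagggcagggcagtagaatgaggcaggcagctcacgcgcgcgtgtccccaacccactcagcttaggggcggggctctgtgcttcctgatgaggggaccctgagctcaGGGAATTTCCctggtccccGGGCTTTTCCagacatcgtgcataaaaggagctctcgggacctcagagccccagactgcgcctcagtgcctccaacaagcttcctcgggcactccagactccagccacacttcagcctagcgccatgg
Cxcl3: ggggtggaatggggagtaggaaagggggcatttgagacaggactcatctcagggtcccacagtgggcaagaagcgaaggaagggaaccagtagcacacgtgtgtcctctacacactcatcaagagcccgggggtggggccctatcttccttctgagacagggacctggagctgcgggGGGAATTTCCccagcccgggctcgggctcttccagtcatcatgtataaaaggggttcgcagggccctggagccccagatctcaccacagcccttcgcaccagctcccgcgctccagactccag
The match began 51 bases upstream of the start in Il1rn, 97 and 78 bases upstream in Cxcl2 and 73 bases upstream in Cxcl3. A second Il1rn window, which overlaps this one, holds the same match. Of the 89 rises 66 had a window, some of them several, and 7 of their 88 windows (5 genes, with Gramd2 and Syt8) held the letters, or 7.95%, against 5 of 360 windows of the falls (1.39%) and 301 of 19177 windows of all genes tested (1.57%). The site was 1 of 8 motifs searched after the values were seen, and it was not alone in this: the octamer, ATTTGCAT, was in 6 of the 88 windows of the rises (6.82%, 5 genes), against 4 of 360 of the falls (1.11%) and 1.6% of all. For AP-1, TGACTCA, the shares were 6.82% of the windows of the rises, 3.06% of those of the falls and 4.63% of all.

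The other rises named by size in both lines were of mixed kind. Nt5dc2, a nucleotidase-like gene, rose by 0.74 ± 0.13 (adjusted p = 0.00843) with no overlap in either line, and the glycolytic enzyme Pgam1 rose by 0.40 ± 0.08 (adjusted p = 0.0203), the same in AIRmax and AIRmin (0.40 each). Slc2a1, the glucose transporter Glut1, named after its value was seen, rose by 0.41 ± 0.09 (adjusted p = 0.0235). Il20ra, a receptor chain for interleukins of the IL-20 group on keratinocytes, rose by 0.58 ± 0.12 (adjusted p = 0.0211), and Lipn, a lipase of differentiating keratinocytes, by 0.56 ± 0.11 (adjusted p = 0.0185). These 5 genes passed whichever single array was left out. Wfdc17 (0.68), Gdf3 (0.66), Galnt6 (0.41) and, named after its value was seen, the inflammasome sensor Nlrp3 (0.46) also passed, with adjusted p from 0.0277 to 0.0456, but were lost without any 1 of 6 to 12 of the arrays. Of 22 immediate early genes, which are switched on within minutes of a stimulus, Fosl1 (0.39, adjusted p = 0.03) and Myc (0.40, adjusted p = 0.0444) rose, and both were lost without any 1 of 7 and 13 arrays. Of 24 acute phase and cytokine genes Il1rn and Saa3 rose, but with the muscle score as a covariate Saa3 did not pass (adjusted p = 0.111). The list had a median change of 0.26 (0.41 in AIRmax and 0.06 in AIRmin). Over all genes 0.446% were called higher.

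Genes of mature B cells had the highest share of falls among the 43 lists (55.6%). Of 18 tested, 10 were lower and 0 higher, against 1.82% lower and 0.446% higher over all genes. For 8 of the 18 there was no overlap between pristane and control arrays in both lines, against 0.913% of all genes. The median change was -0.79 (-0.96 in AIRmax and -0.71 in AIRmin). Fcer2a, the low-affinity IgE receptor CD23, had the smallest adjusted p of all genes. It was at 3.59, 4.30, 3.99 and 3.80 in AIRmax pristane footpads, against 5.78, 5.55, 5.46 and 5.06 in AIRmax controls, and at 4.16, 4.18, 4.00 and 3.92 in AIRmin pristane footpads, against 5.39, 5.63, 4.92 and 5.05 in AIRmin controls. The highest pristane array of both lines was below the lowest control array (-1.36 ± 0.13, 2.57-fold lower, adjusted p = 0.000284).

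Ms4a1, which encodes CD20, had the largest fall of all. Its values were 5.28, 3.49, 2.78 and 3.99 in AIRmax pristane footpads, against 6.85, 6.23, 5.48 and 6.12 in AIRmax controls, and 3.81, 4.90, 3.36 and 4.77 in AIRmin pristane footpads, against 5.41, 6.37, 5.32 and 6.19 in AIRmin controls. The groups did not overlap, although the pristane arrays spread widely (-1.95 ± 0.34, 3.86-fold lower, adjusted p = 0.00821). Cd79a and Cd79b, the signalling chains of the B cell receptor, fell by 1.55 ± 0.29 and 1.34 ± 0.25 (adjusted p = 0.0117 and 0.0133). In bulk RNA of this kind, fewer cells of a type and less RNA per cell cannot be told apart.

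Bank1, a scaffold of B cell receptor signalling, was at 5.21, 4.83, 4.38 and 5.07 in AIRmax pristane footpads, against 6.28, 6.15, 6.14 and 6.74 in AIRmax controls, and at 4.35, 4.93, 4.33 and 5.06 in AIRmin pristane footpads, against 5.52, 6.20, 5.47 and 5.97 in AIRmin controls. No array overlapped (-1.29 ± 0.16, 2.44-fold lower, adjusted p = 0.00134). Fcmr, the IgM receptor, fell by 1.27 ± 0.16 (adjusted p = 0.00134), more in AIRmax (-1.72) than in AIRmin (-0.82), a difference with an unadjusted p of 0.0016 that did not pass over all genes. Cr2, the complement receptor CD21, fell by 1.01 ± 0.14 (adjusted p = 0.00186). Pax5, the transcription factor that keeps B cell identity (-0.86), the inhibitory receptor Cd22 (-0.71) and the kinase Blk (-0.67) also passed. All 10 passed whichever single array was left out.

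Other lymphoid lists gave fewer calls, beside 1.82% of all genes called lower. Of 10 plasma cell genes 0 passed (median 0.07), of 17 T cell genes Cd2 (-0.88, adjusted p = 0.00256) and Cd3g (-0.75, adjusted p = 0.0324) fell, and of 14 genes of NK and cytotoxic cells 0 passed. Of 17 B cell precursor genes Akap12 (-0.70), Ebf2 (-0.43) and Ebf1 (-0.61) fell, which are genes that stromal and fat cells also express. The calls of Cd3g, Ebf1 and Ebf2 were lost without any 1 of 7 to 9 arrays.

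To set arrays side by side, each gene of a list was centred on its mean over the 16 arrays, and the centred values were averaged into 1 score per array. For mature B cell genes it was between -0.77 and 0.01 in AIRmax pristane footpads, against 0.26 to 0.90 in AIRmax controls, and between -0.74 and -0.15 in AIRmin pristane footpads, against -0.04 to 0.55 in AIRmin controls. The scores therefore did not overlap within either line. The 6 genes of granulocyte precursors, cells of the marrow, had scores that varied far more within a group, from -0.63 to 2.29 in AIRmax pristane footpads and 0.01 to 2.30 in AIRmax controls, and from -1.97 to 1.58 in AIRmin pristane footpads and -2.52 to -0.11 in AIRmin controls. All 6 had a positive change and none passed (median 0.56). With this score as a further covariate, all 452 genes still passed, 1373 shared genes were called in all, and 15 of the 18 B cell genes were lower. Of 17 genes of mature neutrophils 16 had a positive change and 0 passed (median 0.41).

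**Figure D3:**
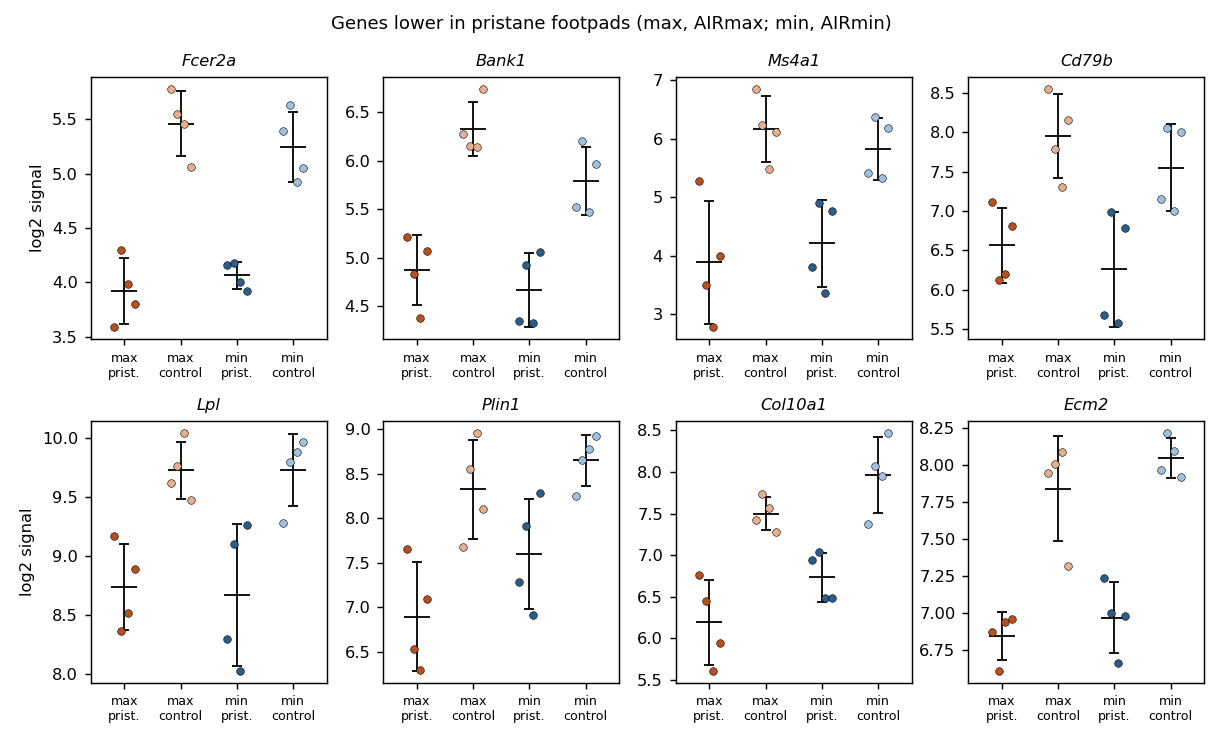
Log2 signal (y axis) of 8 shared falls on each array, as points, with the mean and SD of the 4 arrays of each group (x axis, AIRmax pristane, AIRmax control, AIRmin pristane, AIRmin control). Fcer2a, Bank1, Ms4a1, Cd79b, Lpl, Col10a1 and Ecm2 have no overlap within either line, and Plin1 overlaps in AIRmin.

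MHC class II genes, whose products present peptides to CD4 T cells and which B cells, dendritic cells and macrophages share, fell as well. Of 9 tested 4 were lower (44.4%, against 1.82% of all genes) and 0 higher. All 9 had a negative change in both lines, and the median was -0.54 (-0.78 in AIRmax and -0.35 in AIRmin). For 1 of the 9 there was no overlap between pristane and control arrays in both lines, against 0.913% of all genes. H2-Ob, a chain of the peptide-loading regulator that is typical of B cells, was at 5.86, 5.38, 5.62 and 5.63 in AIRmax pristane footpads, against 7.21, 6.95, 6.76 and 6.57 in AIRmax controls, and at 5.51, 5.36, 5.04 and 5.57 in AIRmin pristane footpads, against 5.73, 6.36, 5.85 and 6.24 in AIRmin controls. It did not overlap in either line (-0.96 ± 0.14, adjusted p = 0.00256). Its partner H2-Oa fell by 0.63 ± 0.12 (adjusted p = 0.0161), H2-Aa by 0.71 ± 0.17 (adjusted p = 0.0349), and Ciita, the master regulator of the class II genes, by 0.41 ± 0.09 (adjusted p = 0.0227). The call of H2-Aa was lost without any 1 of 10 arrays (adjusted p up to 0.072), and that of Ciita without AIRmax control array 107 (adjusted p = 0.0559), an array without which 2 of the 9 passed. With the muscle score as a covariate neither H2-Aa (adjusted p = 0.0837) nor Ciita (0.054) passed.

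Among dendritic and Langerhans cell genes 3 of 13 were lower (23.1%, against 1.82% of all genes). These were Cd209a (-1.05, adjusted p = 0.0273), Cd83 (-0.53, adjusted p = 0.0187) and Siglech (-0.54, adjusted p = 0.0279). The 21 macrophage and monocyte genes went both ways, with 9 positive and 12 negative changes, 9 of the same sign in both lines, and a median of 0.23 in AIRmax and -0.51 in AIRmin. The list score averaged 0.34 ± 0.14 in AIRmax pristane footpads and 0.11 ± 0.14 in AIRmax controls, and -0.48 ± 0.26 in AIRmin pristane footpads and 0.02 ± 0.15 in AIRmin controls (SD, n = 4 each). The 3 called genes were lower and are known from macrophages that reside in tissue: the mannose receptor Mrc1 (-0.56, adjusted p = 0.0211), Timd4, a receptor for dying cells (-0.80, adjusted p = 0.0227), and the hyaluronan receptor Lyve1 (-0.72, adjusted p = 0.0247), which lymphatic vessels also carry. Of 18 CC chemokines 13 had a positive change (median 0.17, with 0.41 in AIRmax and -0.05 in AIRmin) and none of these passed, whereas the eosinophil attractants Ccl24 (-0.91, adjusted p = 0.0169) and Ccl11 (-0.72, adjusted p = 0.0356) fell. Calls of Cd209a, Siglech and Ccl11 were lost without any 1 of 6 to 10 arrays, those of Timd4 without AIRmax control arrays 106 or 107 or AIRmin control array 115 (adjusted p up to 0.0568), and those of Lyve1 without these or AIRmax pristane array 111 (adjusted p up to 0.0607).

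Genes of fat cells and lipid synthesis fell in both lines. Of 23 tested 11 were lower (47.8%, against 1.82% of all genes) and 0 higher. A negative change was seen in 21 (median -0.67, -0.81 in AIRmax and -0.53 in AIRmin). For 2 of the 23 there was no overlap between pristane and control arrays in both lines, against 0.913% of all genes. Lpl, the lipase that releases fatty acids from lipoproteins, was at 9.17, 8.37, 8.52 and 8.89 in AIRmax pristane footpads, against 9.62, 9.76, 10.04 and 9.47 in AIRmax controls, and at 8.30, 9.10, 8.03 and 9.26 in AIRmin pristane footpads, against 9.28, 9.79, 9.88 and 9.96 in AIRmin controls. The groups were apart in both lines, only just in AIRmin (-1.02 ± 0.18, 2.03-fold lower, adjusted p = 0.00843).

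Plin1, the coat protein of lipid droplets, was at 7.66, 6.53, 6.30 and 7.10 in AIRmax pristane footpads, against 7.68, 8.55, 8.96 and 8.11 in AIRmax controls, and at 7.28, 7.91, 6.91 and 8.29 in AIRmin pristane footpads, against 8.25, 8.66, 8.78 and 8.92 in AIRmin controls. One AIRmin pristane array overlapped the controls (-1.24 ± 0.24, 2.36-fold lower, adjusted p = 0.014). The fatty acid carrier Fabp4 fell by 0.86 ± 0.17 (adjusted p = 0.0166), Pparg, the nuclear receptor that drives fat cell formation, by 0.78 ± 0.16 (adjusted p = 0.017), and the hormone adiponectin, Adipoq, by 1.24 ± 0.26 (adjusted p = 0.0221), which did not pass without AIRmax control array 106 or 107 (adjusted p = 0.051 and 0.0544). Cidec (-0.86), Cidea (-0.74), Plin4 (-0.65), Lipe (-0.66), Scd1 (-0.67) and Thrsp (-1.02), which serve lipid droplets, lipolysis and fatty acid synthesis, had adjusted p from 0.0316 to 0.0438 and were lost without any 1 of 9 to 12 arrays. Lepr, the leptin receptor, which also marks stromal cells of the marrow and was named after its value was seen, fell by 1.07 ± 0.20 (adjusted p = 0.0117).

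The promoter of Plin1 is shown for a sequence like the site of C/EBP factors, TTGCNNAA, searched on both strands, which its window (chr7:79732727-79733026, minus strand) holds at 187 and 58 bases upstream of the start, in capitals.
Plin1: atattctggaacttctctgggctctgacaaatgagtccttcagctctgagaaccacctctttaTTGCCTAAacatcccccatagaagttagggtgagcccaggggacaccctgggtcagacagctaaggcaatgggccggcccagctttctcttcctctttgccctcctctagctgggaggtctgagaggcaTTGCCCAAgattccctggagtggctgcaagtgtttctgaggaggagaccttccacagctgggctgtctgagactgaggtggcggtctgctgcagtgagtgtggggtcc
Of the 11 fat cell genes called lower 7 had a window, and 3 of their 11 windows held the letters (27.3%, in Plin1, Pparg and Cidec). The shares were 8.89% of the windows of all falls, 9.09% of those of the rises and 9.75% of those of all genes tested. The motif was 1 of the 8 searched after the values were seen, and the 27.3% rests on 3 genes picked by their calls.

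The list score of the fat cell genes was between -0.86 and -0.08 in AIRmax pristane footpads, against 0.04 to 0.46 in AIRmax controls, and touched in AIRmin, with -0.48 to 0.22 in pristane footpads and 0.22 to 0.54 in controls. With this score as a further covariate, a fit added after the data were seen, 0 genes passed, of all 452 and also of the B cell and bone lists. The score follows treatment in both lines, and score and treatment cannot be told apart in that fit. The score of 30 skeletal muscle genes was between -1.58 and 0.02 in AIRmax pristane footpads, against -0.29 to 0.31 in AIRmax controls, and between 0.24 and 0.66 in AIRmin pristane footpads, against -0.64 to 0.80 in AIRmin controls. In AIRmax the muscle score thus partly followed treatment, and the effects of the muscle score and of treatment cannot be fully told apart. With the muscle score as a covariate 299 shared genes passed, and the lower calls numbered 10 for B cell genes (10 without the score), 6 for bone genes (6), 5 for fat cell genes (11) and 2 for MHC class II genes (4), and the higher calls 1 for acute phase genes (2) and 0 for CXC chemokines (3).

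**Figure D4:**
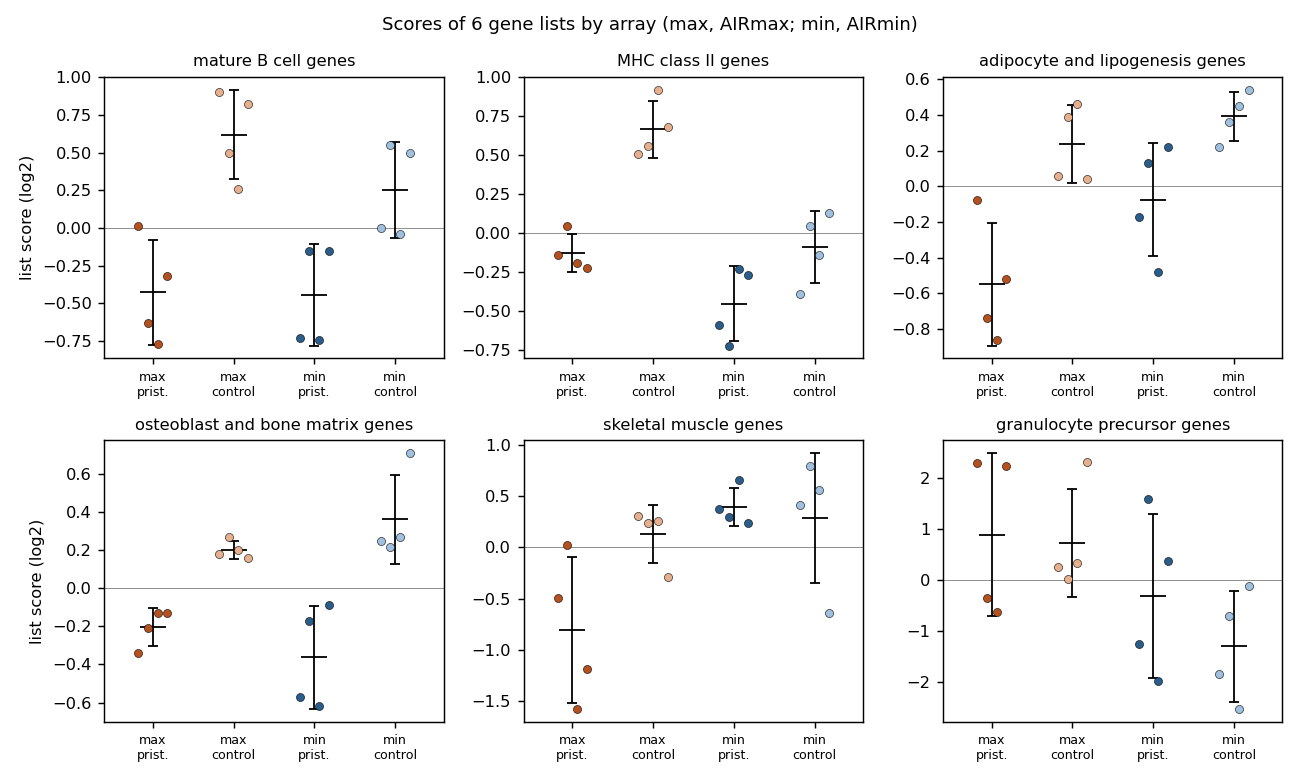
Score of 6 gene lists on each array (y axis, mean deviation in log2 units from each gene's mean over the 16 arrays), as points, with the mean and SD of each group (x axis, AIRmax pristane, AIRmax control, AIRmin pristane, AIRmin control). The scores of mature B cell and of osteoblast genes are apart in both lines, and the score of granulocyte precursor genes spreads from -2.52 to 2.30 with no separation of the treatments.

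Genes of bone matrix and its cells fell, with 6 of 12 tested lower (50%, against 1.82% of all genes) and 0 higher. All 12 changes were negative (median -0.55, -0.36 in AIRmax and -0.72 in AIRmin). For 3 of the 12 there was no overlap between pristane and control arrays in both lines, against 0.913% of all genes. Phex, an enzyme of osteocytes that governs phosphate balance and is mutated in hypophosphataemic mice, was at 6.92, 6.13, 5.97 and 6.98 in AIRmax pristane footpads, against 7.78, 7.65, 7.86 and 7.39 in AIRmax controls, and at 5.88, 6.32, 5.42 and 6.94 in AIRmin pristane footpads, against 7.44, 7.07, 7.16 and 8.21 in AIRmin controls. The groups were apart in both lines (-1.25 ± 0.22, 2.38-fold lower, adjusted p = 0.00882). The osteocyte genes Mepe (-0.58, adjusted p = 0.0162), Sost, which encodes the Wnt inhibitor sclerostin (-0.45, adjusted p = 0.0295), and Dmp1 (-0.88, adjusted p = 0.0313) and the osteoblast transcription factor Sp7 (-0.67, adjusted p = 0.0366) fell with it. Calls of Sost, Dmp1 and Sp7 were lost without any 1 of 7 to 10 arrays. Of 12 osteoclast genes, whose products resorb bone, 0 passed (median 0.13). The score of the bone list was between -0.34 and -0.13 in AIRmax pristane footpads, against 0.16 to 0.27 in AIRmax controls, and between -0.62 and -0.09 in AIRmin pristane footpads, against 0.22 to 0.71 in AIRmin controls, with no overlap in either line.

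Omd, or osteomodulin, the remaining member that passed (-1.02 ± 0.14, adjusted p = 0.00186), lies in a row of genes for matrix proteins on chromosome 13 that fell together. From chr13:49504810 to chr13:49624501 the order is Ecm2, Aspn, Omd and Ogn. Ecm2, a matrix protein with leucine-rich repeats, was at 6.87, 6.61, 6.94 and 6.96 in AIRmax pristane footpads, against 7.95, 8.01, 8.09 and 7.32 in AIRmax controls, and between 6.66 and 7.24 in AIRmin pristane footpads, against 7.97, 8.22, 8.10 and 7.92 in AIRmin controls. Its lowest control array was above its highest pristane array (-1.04 ± 0.11, 2.06-fold lower, adjusted p = 0.00032), and its change in AIRmin was -1.08. Aspn, Ogn and the gene below were named after their values were seen. Ogn, or mimecan, fell by 0.92 ± 0.12 (adjusted p = 0.00186), and Aspn, or asporin, by 0.57 ± 0.14 (adjusted p = 0.0476, lost without any 1 of 13 arrays). Cenpp, a centromere gene that RefSeq places over the whole row (chr13:49464025-49652950), changed by -0.01 ± 0.14 (adjusted p = 0.974).

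A second row of the same protein family, on chromosome 10, was examined for that reason. Of its 4 genes Epyc (-0.67, adjusted p = 0.0499), Kera (-0.76, adjusted p = 0.0366) and Dcn, or decorin (-0.37, adjusted p = 0.0211), fell in the fit of both lines. Lum, which lies between Dcn and Kera, had 0.08 in AIRmax and -0.86 in AIRmin and did not pass (-0.39 ± 0.17, adjusted p = 0.237). Calls of Epyc and Kera were lost without any 1 of 12 or 13 arrays, and that of Dcn without AIRmax control array 106 or 107 (adjusted p up to 0.0515).

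Of 19 cartilage and tendon genes Chad, Comp and Epyc were lower (15.8%, against 1.82% of all genes) and 0 higher. A negative change was seen in 16 (median -0.27), and 1 of the 19 had no overlap in both lines, against 0.913% of all genes. Col10a1, the collagen of hypertrophic chondrocytes, was at 6.76, 6.45, 5.61 and 5.95 in AIRmax pristane footpads, against 7.42, 7.73, 7.57 and 7.28 in AIRmax controls, and at 6.94, 7.04, 6.49 and 6.48 in AIRmin pristane footpads, against 7.37, 8.07, 7.95 and 8.47 in AIRmin controls. It did not overlap in either line (-1.27 ± 0.17, 2.41-fold lower, adjusted p = 0.00186). Chad, or chondroadherin, which anchors chondrocytes and tendon cells to collagen, was at 8.81, 8.31, 7.91 and 8.07 in AIRmax pristane footpads, against 10.06, 10.50, 10.06 and 9.32 in AIRmax controls, and at 9.21, 9.59, 9.08 and 9.44 in AIRmin pristane footpads, against 9.97, 10.39, 10.45 and 10.49 in AIRmin controls. It was also apart in both lines (-1.35 ± 0.18, 2.55-fold lower, adjusted p = 0.00186).

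Clec3a, a lectin of cartilage, fell by 1.39 ± 0.26 (adjusted p = 0.0128), with no overlap in either line, and Comp, the cartilage oligomeric matrix protein, by 0.55 ± 0.10 (adjusted p = 0.0133). Coch, or cochlin, a secreted matrix protein, fell by 1.41 ± 0.30 (adjusted p = 0.0208), but not past the threshold without AIRmax control array 107 (adjusted p = 0.0515). The 10 fibrillar collagens had 0 calls and went in different directions in the lines, with a median of 0.35 in AIRmax and -0.76 in AIRmin.

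Secreted signals and their inhibitors that pattern cartilage and bone were further falls, named after their values were seen and belonging to no list. Wif1, an inhibitor of Wnt proteins, was at 8.01, 7.49, 7.68 and 7.95 in AIRmax pristane footpads, against 8.83, 8.62, 8.69 and 8.25 in AIRmax controls, and at 7.95, 8.43, 7.46 and 8.17 in AIRmin pristane footpads, against 8.70, 8.78, 9.09 and 8.95 in AIRmin controls, with no overlap (-0.85 ± 0.13, adjusted p = 0.00389). Frzb, another Wnt inhibitor, fell by 0.83 ± 0.13 (adjusted p = 0.00606), the bone morphogenetic proteins Bmp4 and Bmp5 by 0.71 ± 0.10 and 0.85 ± 0.14 (adjusted p = 0.00362 and 0.00621), and Grem1, which binds and blocks such proteins, by 0.72 ± 0.15 (adjusted p = 0.0186). Hhip, which binds hedgehog proteins, fell by 1.13 ± 0.21 (adjusted p = 0.0117), with -1.72 in AIRmax and -0.55 in AIRmin. None of these 6 genes overlapped between pristane and control arrays within either line. The genes were picked for their values, so their number is no measure of a theme.

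Genes that mark growth after birth are of interest because the footpads differ in day. All mice carry the same label of 2 to 4 months, which cannot be the age of pristane mice at day 160. If it is the age at the start, the pristane mice were older than the controls when the footpads were taken. Of 18 growth genes 2 were lower (11.1%, against 1.82% of all genes). These were the growth restrainer Gpc3 (-0.95, adjusted p = 0.00475) and the cell cycle inhibitor Cdkn1c (-0.42, adjusted p = 0.0112). A negative change was seen in 13 of the 18 (median -0.25). Of 21 DNA replication genes 18 had a positive change and 0 passed (median 0.21, with 0.15 in AIRmax and 0.28 in AIRmin). Of 23 mitosis genes 22 had a positive change and 0 passed (median 0.15, with 0.01 in AIRmax and 0.30 in AIRmin). The sign was the same in both lines for 18 of the 21 and 13 of the 23, against 62% of all genes. Over all genes 11390 of 19938 changes were positive. Age and treatment cannot be told apart here, and the part of age in the falls was not tested.

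Smaller numbers of calls came from the other matrix and tissue lists, beside 1.82% of all genes called lower. Of 21 genes of elastic fibres and matrix glycoproteins Fbln5 (-0.66, adjusted p = 0.0108), Ltbp1 (-0.48) and Fbln1 (-0.47) fell, but 5 of the 21 had the same sign in both lines and the median was 0.23 in AIRmax and -0.61 in AIRmin. Of 18 matrix metalloproteinases and their inhibitors Mmp12, the elastase of macrophages (-0.71 ± 0.12, adjusted p = 0.00606), and Timp3 (-0.55, adjusted p = 0.0326) fell, with a list median of 0.28 in AIRmax and -0.39 in AIRmin. Of 16 complement genes the regulators Cd55 (-0.65, adjusted p = 0.0148) and Cd59a (-0.53, adjusted p = 0.0335), which shield cells from complement, fell, with a list median of 0.28 in AIRmax and -0.43 in AIRmin. Of 23 xenobiotic and antioxidant genes Cat, or catalase (-0.55, adjusted p = 0.0227), and Gpx3 (-0.70, adjusted p = 0.0279) fell. Single members fell in the lists of collagen processing enzymes (Pcolce2, -0.83), endothelium (Tek, -0.50), Schwann cells (Cnp, -0.68) and amino acid and unfolded protein responses (Nupr1, -0.41), and Col10a1 was the 1 fall among 19 other collagens, of which 13 had a positive change. The calls of Ltbp1, Fbln1, Timp3, Cd59a, Gpx3, Tek and Nupr1 were lost without any 1 of 6 to 13 arrays, and that of Cat without AIRmax control array 107 or AIRmin control array 115 (adjusted p = 0.0564 and 0.051).

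Further falls named by size were Cdo1, the cysteine dioxygenase of fat and liver (-1.09 ± 0.16, adjusted p = 0.00256), and Sprr4, a gene of the cornified envelope (-1.16 ± 0.27, adjusted p = 0.0349, lost without any 1 of 10 arrays). Among contractile genes of vascular smooth muscle, named after their values were seen, Tagln fell by 0.56 ± 0.11 (adjusted p = 0.0174), Acta2 by 0.59 ± 0.13 (adjusted p = 0.0296) and Cnn1 by 0.65 ± 0.16 (adjusted p = 0.0438), and the calls of Acta2 and Cnn1 were lost without any 1 of 8 or 12 arrays.

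**Figure D5:**
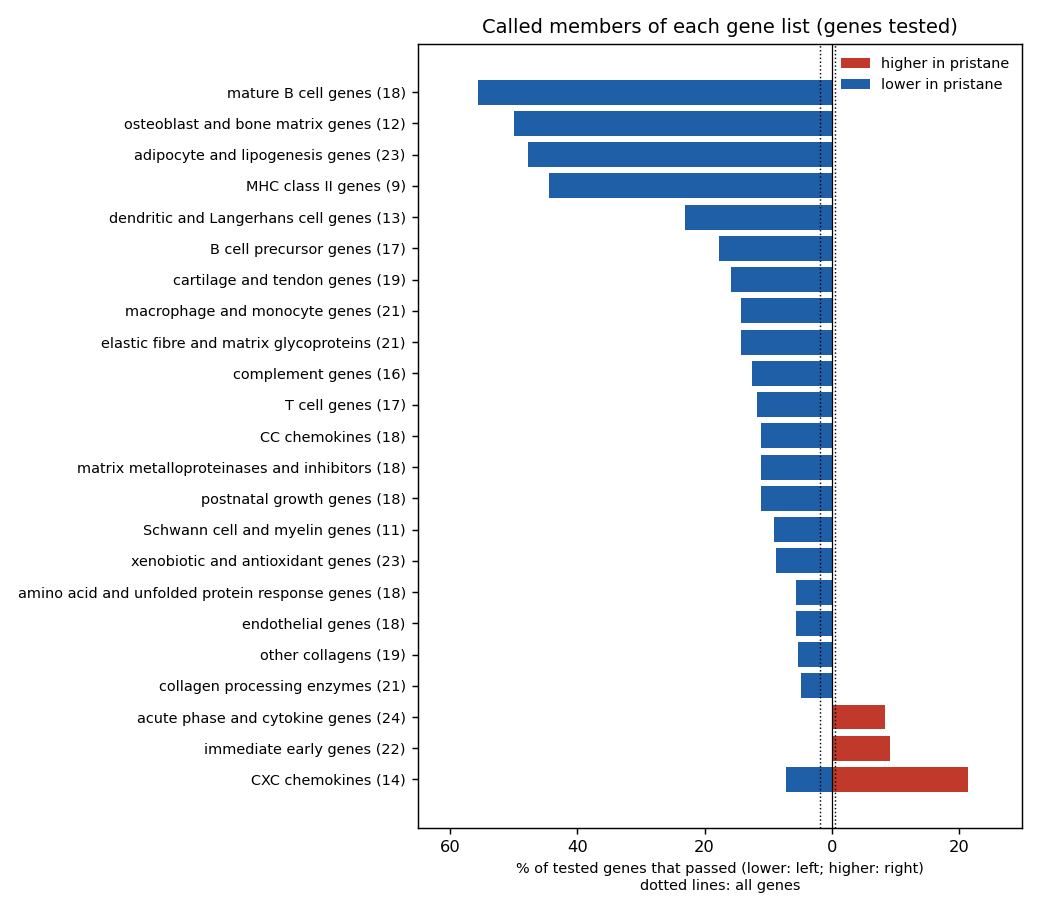
Share of the tested genes of each list that passed (x axis, percent, falls to the left in blue and rises to the right in red), for the lists (y axis, genes tested in brackets) with at least 1 call, with the shares over all genes as dotted lines. Mature B cell, osteoblast, adipocyte and MHC class II genes lead the falls with 55.6%, 50%, 47.8% and 44.4%, and only CXC chemokines, acute phase and immediate early genes had rises.

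The 43 lists hold 718 of the 19938 genes tested, and 7 of the 89 rises and 64 of the 363 falls are in a list. The lists with 0 calls in either direction, beside those given above, were MHC class I and processing genes (median 0.03), interferon stimulated genes (0.20), erythroid (0.00), mast cell (-0.37) and skeletal muscle genes (-0.43, with -0.95 in AIRmax and 0.13 in AIRmin), keratinocyte and cornification genes (-0.02, with -0.34 in AIRmax and 0.36 in AIRmin), sweat gland genes (0.06), clock genes (0.02), glucocorticoid response genes (0.08), heat shock and chaperone genes (-0.02), oxidative phosphorylation genes (-0.09) and cholesterol synthesis genes (-0.28, with -0.58 in AIRmax and 0.06 in AIRmin). A list with no call is not shown to be without change at 8 arrays a treatment.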

How the data were processed

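Each of 16 footpad RNA samples was hybridized to 1 Affymetrix gene array, and the study calls the 4 arrays of a group biological replicates. As deposited, a probe set's value is a log2 signal that the authors had background-corrected and normalized; titles refer to RMA at gene level, the submitters' processing notes to MAS5, and neither gives a version. They were used unchanged. Of 35556 probe sets, 21789 name 1 gene in the platform annotation, and each gene was taken from its brightest such probe set, giving 19938 genes. The 1621 sets naming several genes and the 12146 naming none stayed out of the fit. Array signal has no counted depth, so the number of arrays limits the precision.

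The response was fitted with limma 3.58.1 (R 4.3.3, lmFit and eBayes with a constant prior) with line as a covariate. The study's SAM test takes no covariate and was not run. Each line was fitted on its own 8 arrays, and the difference between lines as an interaction. Adjusted p values for genes are from these fits, unless an added covariate or an array left out is named beside them. The code was tested on simulated data. Genes were named by rule: the 15 rises and 15 falls largest in the less changed line with a signal of at least 5, the 6 largest changes each way, up to 4 genes a list, taken by p, and shared genes that passed the interaction. Others were named after their values were seen, either so marked or to complete the calls of a list or gene row (Pax5, Cd22, Blk, Adipoq, Thrsp, Plin4, Cidec, Cidea, Lipe, Scd1, Dmp1, Sp7, Lum, Dcn, Kera). The members, lists and rules were chosen with earlier results of these data known. Alternatives were other probe set choices, scalings, covariates, priors, array weights, 1 sex and each array left out. Tables and figures used Python 3.11.15, numpy 2.4.6, pandas 2.3.3 and matplotlib 3.10.9. Positions and promoters are those of RefSeq, GRCm38.p6.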

Additional observations from a re-analysis of the deposited data

Results flagged for a closer look

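The response differed between the lines for Saa3 and Timp1. The response of Saa3 was larger in AIRmax than in AIRmin by 4.21 (log2, interaction contrast in limma, adjusted p = 0.000147), and that of Timp1 by 3.07.

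In 22 of 436 groups of 4 arrays (109 genes), 1 array lay far from the other 3, which chance gives in about 1 of 20 groups. Arrays high in their group were Gadd45b at 7.94 in AIRmax control array 105 (others 7.69 to 7.70), Nlrp3 at 4.42 in AIRmin control array 116 (3.86 to 3.92), Il20ra at 5.48 in AIRmax pristane array 111 (4.83 to 4.86), Fosl1 at 5.73 in AIRmin pristane array 119 (5.26 to 5.30) and H2-Aa at 10.87 in AIRmax control array 107 (10.06 to 10.13). Lepr was at 7.74 (7.27 to 7.32), Dmp1 at 8.63 (7.16 to 7.36) and Plin4 at 8.17 (7.47 to 7.57) in AIRmin control array 116. Epyc was at 7.17 in AIRmin control array 115 (5.91 to 6.02), Sprr4 at 7.48 in AIRmax pristane array 110 (5.61 to 5.72), Cdkn1c at 7.21 in AIRmin pristane array 117 (6.87 to 6.92) and Timp3 at 9.40 in AIRmax pristane array 111 (9.17 to 9.19). Timd4 was at 5.91 (5.36 to 5.45) and Plin4 at 7.11 (6.25 to 6.38) in AIRmax pristane array 109.

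Arrays low in their group were Nt5dc2 at 8.86 in AIRmax pristane array 109 (others 9.54 to 9.65) and at 8.39 in AIRmin pristane array 118 (8.61 to 8.63), Il20ra at 4.08 in AIRmax control array 105 (4.51 to 4.60) and Sost at 6.34 in AIRmax pristane array 112 (6.53 to 6.56). Gdf3 was at 4.38 (5.15 to 5.22) and Fcmr at 5.13 (5.42 to 5.46) in AIRmin pristane array 117, Ccl24 at 7.53 in AIRmin control array 116 (7.96 to 8.03), and Dcn at 12.07 in AIRmin pristane array 119 (12.47 to 12.54).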

How the results depend on the processing

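With 1 array left out the shared genes (452 with all arrays) numbered 217 to 616, the rises 31 to 130, the falls 186 to 486, genes without overlap in both lines 192 to 313, the AIRmax calls 4 to 107, the AIRmin calls 0 to 138 and the calls for the difference 15 to 120. The shared count moved by over 1.5 times without AIRmax control array 106 (243) or 107 (217), AIRmax pristane array 110 (297), AIRmin control array 114 (250) or 115 (248) or AIRmin pristane array 119 (279). Of 106 named genes that passed, 59 passed whichever array was left out, and the sign turned for 0. Mature B cell genes lower stayed at 10 or more of 18 throughout, whereas those of fat cells numbered 4 without AIRmax control array 106 or 107.

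In males alone 0 genes passed and in females alone 1 (0 higher, 1 lower), each on 8 of the 16 arrays. With the granulocyte precursor score as a covariate 1392 genes were called, 1373 of them shared (510 higher, 863 lower), so the share of higher calls was 36.8% against 19.7%. Without the 4 arrays highest in that score 1099 passed (475 higher, 624 lower, 43.2% higher) and 1075 did not overlap. Groups with fewer arrays are apart more easily, so this count cannot be set beside the 182 genes of all 16 arrays. The same holds for every count without overlap given here with arrays left out. With the muscle score 299 shared genes passed, 41 of them higher. A change of at least 2-fold left 32 (3 higher, 29 lower), array quality weights gave 146 rises, and genes above the median signal gave 42 rises, 1 mature B cell gene, 22 AIRmax calls and 44 AIRmin calls. Genes at or below the median were removed before that last fit. All 72 named calls that remained in it were kept, so the other mature B cell calls were not tested there. Quantile normalization gave 4 AIRmin calls, and standardized arrays 61 calls for the difference. Alternatives added after the data were seen were the fat cell score as a covariate, with 0 calls and the signs of Adipoq (0.043), Lipe (0.043) and Scd1 (0.066) turned, and leaving out arrays 108 and 119, with 361 genes without overlap. Adipoq, Lipe and Scd1 are members of the list behind the fat cell score, so their turned signs cannot be read as a reversal. Cenpp, within its error of 0, was positive with array weights (0.095), with the fat cell score (0.17), without arrays 108 and 119 (0.11) and without any 1 of 6 arrays (range over all arrays left out -0.072 to 0.052). The causes were not tested. Other probe set choices, sex as a covariate, 4 group means and a trended prior left the shared count within 1.5 times. No paired analysis was possible because the array numbers differ between groups and pair no samples. Many rises were dim, with a mean signal under 5 in both treatments for 35 of 89.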

Other observations

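Probe sets that name several genes entered no comparison. In a fit of all annotated probe sets, 2 of these 1621 sets were higher and 9 lower in pristane footpads.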
